A study of Homo sapiens with 6 samples.

Results

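The 53 genes described here encode the machinery that copies DNA in S phase and the enzymes that supply its nucleotide precursors. They were listed by function, and earlier results of these data were known when the list was made. A gene of the table was a member if its Ensembl identifier carries, in GENCODE release 29, any of 53 symbols. These symbols come from origin licensing, the replicative helicase, the DNA polymerases, the clamp and its loader, single-strand binding, Okazaki fragment processing, nucleotide synthesis, and chromatin assembly. All 53 were found among the 32364 genes of the table. They were compared in Kasumi-1 cells, an acute myeloid leukemia line that carries the t(8;21) fusion of RUNX1 with RUNX1T1, between 3 libraries of control cells and 3 libraries of cells given I13, an inhibitor of histone deacetylases, at 0.5 µM for 48 h. Control cells were kept for the same 48 h, with DMSO at the concentration of the I13 solution by the study's methods. The study asked which mRNAs differ after I13 in work on the differentiation of leukemia cells. Replication genes are a usual readout of cells leaving the cell cycle. By flow cytometry, the paper reports that the G0/G1 share of this line rose with treatment time, at the dose sequenced here. It also reports less proliferation and fewer colonies, and proposes that I13 may cause arrest in G0/G1. Cell cycle phase was not measured in these libraries, so how mRNA levels relate to that share was not tested. All 6 libraries come from this single line, and their labels do not say whether replicates were separate cultures, while the paper describes its sequencing results as representative of independent experiments. P-values measure the spread between these libraries.

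A replication origin is licensed in G1, when the origin recognition complex, CDC6 and CDT1 load the MCM2-7 ring onto DNA, and geminin (GMNN) blocks a further round by holding CDT1. The ring becomes an active helicase at the start of S phase through the DBF4-dependent kinase CDC7, MCM10, CDC45 and the GINS complex, after which primase, the polymerases alpha, delta and epsilon, the PCNA clamp and its RFC loader copy both strands. Many of these genes are transcribed by E2F factors late in G1, so their mRNA is commonly high in dividing cells and low in resting or differentiated ones.

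Expression is given as FPKM, the fragment count of a gene scaled by exon length and by library total, so that levels can be set beside each other between genes. Differences are on the log2(FPKM + 0.1) scale and come from limma over the 18726 genes whose mean FPKM reached 0.1, with p-values adjusted by the Benjamini-Hochberg method. Control libraries had a recovered depth of 16566742 to 17221345 fragments, I13 libraries one of 15281052 to 16682550, and each member had between 172 and 11034 fragments in every library. In a principal component analysis of the 4133 genes at 10 FPKM or more, component 1, with 43.3% of the variance, separated a pair of libraries (control replicate 3 and I13 replicate 2) from the other 4. On component 2, with 20.5% of the variance, the scores were negative in all 3 control libraries and positive in all 3 I13 libraries. The sources used here name no batch. The markers that fit the label of the line, MPO, KIT, CD34, ELANE, AZU1 and RUNX1T1, were all expressed, with MPO between 10241 and 12450 FPKM. Of 12 markers of T cells, B cells, red cells, epithelium, fibroblasts and liver, 10 were in the table and COL1A1, COL3A1 and ALB were at 0 in every library. Their summed level was 23.1 to 28.5 FPKM in the control and 25.0 to 28.1 FPKM in the I13 libraries, nearly all of it from EPCAM at 20.8 to 26.5 FPKM. Of these markers CD3D was lower with I13 at the unadjusted p, at 0.313, 0.376 and 0.325 FPKM in the control and 0.135, 0.129 and 0.141 FPKM in the I13 libraries, which is 2 to 6 fragments.

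The replication and nucleotide supply genes differed little in mRNA level between I13 and control. None of the 53 members passed the adjusted p (the background is 0% of all genes tested), and their adjusted p-values from limma lay between 0.875 and 1. At an unadjusted p under 0.05, 4 members were higher with I13 (DUT, RPA2, PCNA and MCM3), where 2.55% of all genes tested were, and 0 were lower, where 2.59% were. None of the 53 passed the log2 fold change of 0.58 that the study's methods set, with 1.17% of all genes past it and the unadjusted p as higher and 1.2% as lower. Most of those genes had low levels, while every member had a mean of 2.31 FPKM or more. Of the 9677 protein-coding genes tested with a mean FPKM of at least 1, only 24 passed both in either direction. The members' log2 fold changes ran from -0.10 for CDT1 to 0.18 for RFC5, with a median of 0.07, against a median of 0.01 over all genes tested. Of the 53, 42 (79.2%) had a log2 fold change above 0, where 51.8% of all genes did. The members are not independent of each other, and many of them share the same regulators and the same libraries.

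The precision of the data limits how large an unseen change in FPKM could be. The 95% confidence intervals of all 53 members excluded a log2 fold change of 0.58 in either direction. The widest reach upward was that of ORC3, whose interval ended at 37.0% above the control, and the widest reach downward was that of POLE2, whose interval ended at -23.6%. In a bulk library a smaller share of cycling cells and less of an mRNA per cell cannot be told apart, so these intervals apply to the mixture. FPKM is scaled by library total, so they cover the level of a gene relative to that total. A change in total RNA per cell would not show in them.

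**Figure D1:**
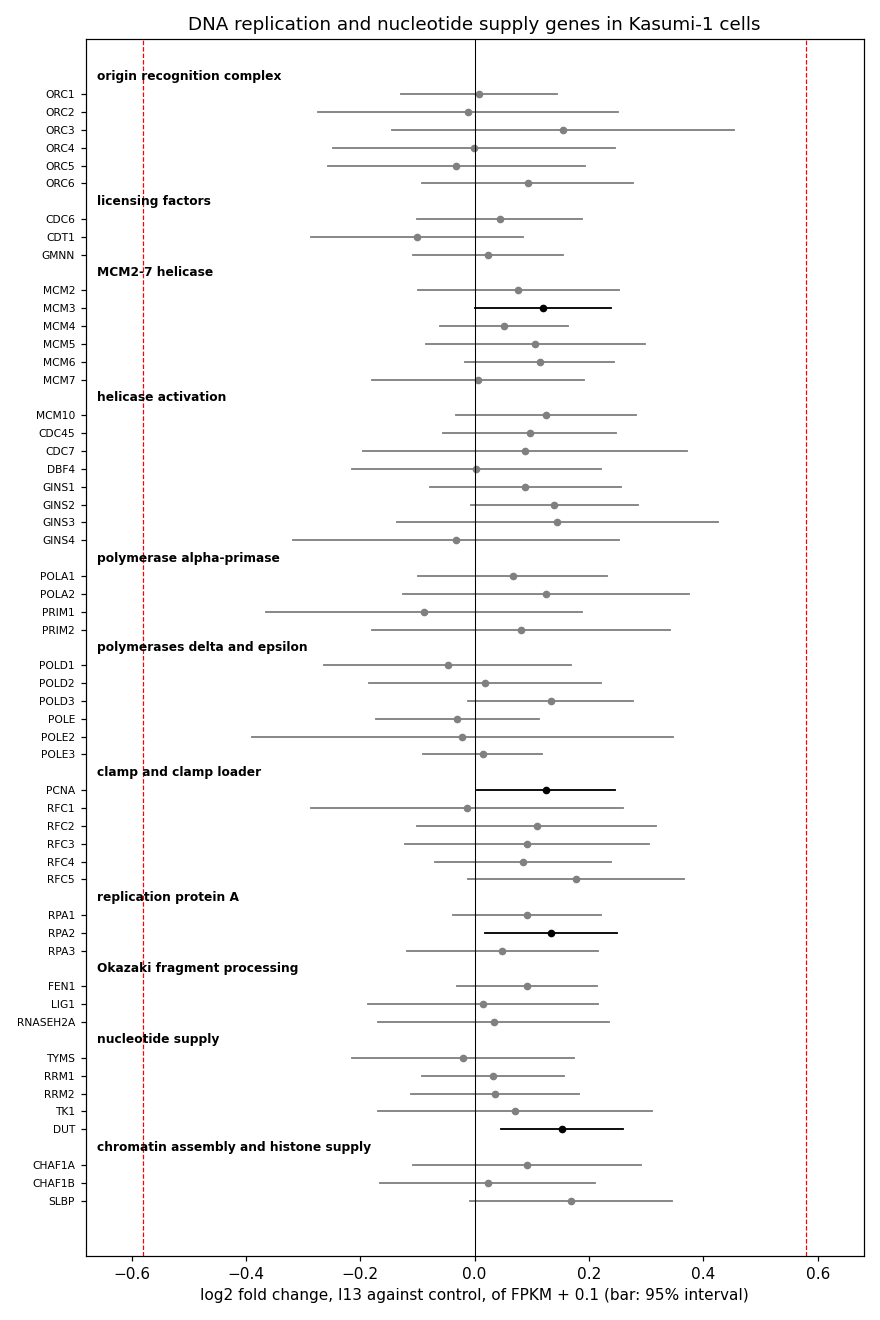
Log2 fold change of FPKM + 0.1, I13 against control, for the 53 members by subcomplex, with points for limma's estimate from 3 and 3 libraries and bars for its 95% interval. The estimates lie between -0.10 and 0.18, and all bars end inside a log2 fold change of 0.58 in either direction.

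As for the level itself, these cells expressed the whole set. The median of the members' mean levels was 16.2 FPKM, against 5.47 FPKM for the 11931 protein-coding genes with a mean FPKM of 0.1 or more, and 48 of 53 members were above that median. The highest were PCNA at 150 FPKM, MCM7 at 137 FPKM and TK1 at 115 FPKM, and the lowest was GINS3 at 2.31 FPKM, at percentile 30.0 of those protein-coding genes. These ranks are by the length of all exons joined. With the length of the principal transcript MCM7 came above PCNA, POLD2 above TK1 and GINS3 above GINS4. In control replicates 1, 2 and 3 the members together made up 0.503%, 0.518% and 0.543% of the summed FPKM. In I13 replicates 1, 2 and 3 they made up 0.541%, 0.546% and 0.538%. The share was lowest in control replicate 1, and the groups overlapped because control replicate 3 lay above I13 replicates 1 and 3.

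**Figure D2:**
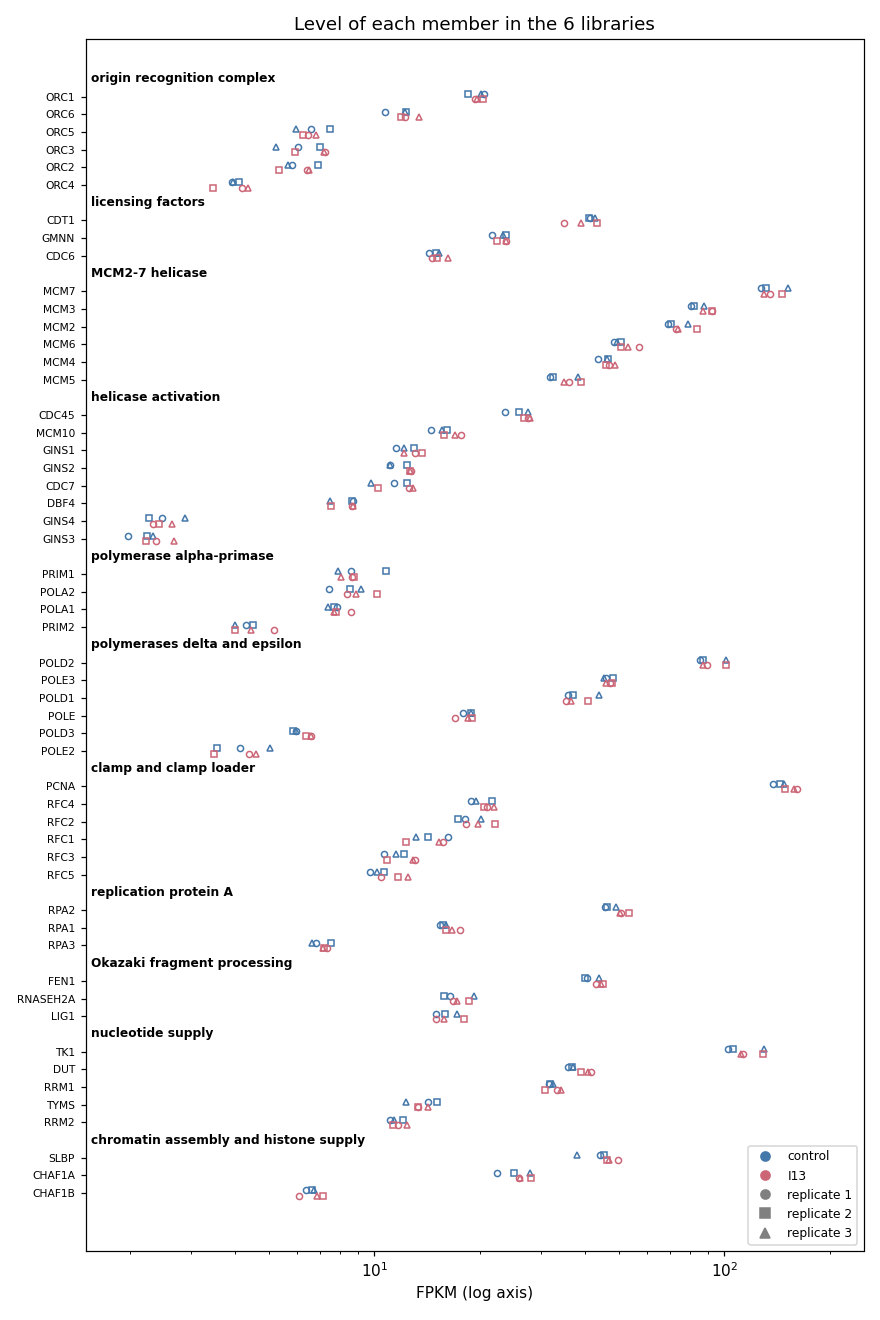
FPKM of each member on a log axis in the 6 libraries, grouped by subcomplex, with a color for control and I13 and a marker for the replicate. PCNA, MCM7 and TK1 are at the top of the range and GINS3, GINS4 and ORC4 at the bottom, and the control and I13 points of a gene lie close together.

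Because many of these genes are known E2F targets, their promoters were searched for the E2F words TTTCCCGC, TTTCGCGC, TTTGCCGC and TTTGGCGC on both strands. RefSeq promoter windows of 300 bases, from 250 before to 50 after a start site, were matched for 47 of 53 members. The other members are MCM4, MCM5, GINS4, POLD3, RPA2 and RPA3. An E2F word was found in 21 of the 64 windows of members (32.8%) and in 3.31% of all 35116 windows. By gene, 21 of the 47 members (44.7%) held one, against 3.99% of 27305 genes. CCAAT, the box that NF-Y binds, was in 31 of the 64 windows (48.4%) and in 34.6% of all windows. A match is a description of the letters and was not tested for binding.

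The 5 windows below belong to members that were higher at the unadjusted p or did not overlap between the groups, and hold an E2F word, which is in capitals on either strand. They are from RefSeq on GRCh38.p14 and are written in the direction of the gene: PCNA at chr20:5126573-5126872 on the minus strand, MCM3 at chr6:52284693-52284992 on the minus strand, MCM6 at chr2:135876394-135876693 on the minus strand, GINS2 at chr16:85688905-85689204 on the minus strand and DUT at chr15:48331947-48332246 on the plus strand.
PCNA: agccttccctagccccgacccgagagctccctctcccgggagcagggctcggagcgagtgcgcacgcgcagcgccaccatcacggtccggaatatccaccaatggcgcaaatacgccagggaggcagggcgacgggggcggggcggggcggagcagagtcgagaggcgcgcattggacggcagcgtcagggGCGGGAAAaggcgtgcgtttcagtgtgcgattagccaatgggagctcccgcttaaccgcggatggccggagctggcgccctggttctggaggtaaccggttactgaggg
MCM3: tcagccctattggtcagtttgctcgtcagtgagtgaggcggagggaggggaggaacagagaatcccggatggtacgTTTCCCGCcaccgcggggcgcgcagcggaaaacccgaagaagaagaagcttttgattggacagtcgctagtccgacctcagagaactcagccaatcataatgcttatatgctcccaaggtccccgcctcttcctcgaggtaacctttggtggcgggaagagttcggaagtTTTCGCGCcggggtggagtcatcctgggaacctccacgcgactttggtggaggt
MCM6: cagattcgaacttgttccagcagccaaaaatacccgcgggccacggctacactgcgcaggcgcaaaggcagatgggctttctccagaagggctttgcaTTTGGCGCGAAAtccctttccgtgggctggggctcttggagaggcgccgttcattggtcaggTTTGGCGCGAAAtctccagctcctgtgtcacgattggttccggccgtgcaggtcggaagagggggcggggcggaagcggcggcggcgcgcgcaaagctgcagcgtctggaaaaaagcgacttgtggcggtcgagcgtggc
GINS2: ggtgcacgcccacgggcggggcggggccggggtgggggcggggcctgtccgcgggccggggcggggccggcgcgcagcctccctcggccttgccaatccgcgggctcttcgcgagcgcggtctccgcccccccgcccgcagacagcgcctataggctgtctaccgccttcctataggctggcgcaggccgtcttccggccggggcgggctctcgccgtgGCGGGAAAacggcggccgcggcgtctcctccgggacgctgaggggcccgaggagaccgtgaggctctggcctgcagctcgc
DUT: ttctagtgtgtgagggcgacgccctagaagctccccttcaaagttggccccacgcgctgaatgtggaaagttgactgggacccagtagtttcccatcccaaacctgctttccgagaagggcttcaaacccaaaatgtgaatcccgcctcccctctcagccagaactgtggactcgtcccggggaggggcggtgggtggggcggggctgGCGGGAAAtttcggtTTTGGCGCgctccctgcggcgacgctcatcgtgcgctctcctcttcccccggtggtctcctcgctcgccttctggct

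Counted from the start site, with the base before it as position -1, the E2F word of PCNA began at -59 and that of GINS2 at -31. MCM3 held one at -174 and another at -4. DUT held matches at -42 and -27 in this window, while its other 3 windows held none. PCNA also has a further window, at chr20:5119909-5120208, that held none. In MCM6 the matches at -152 and -148 overlap each other, as do those at -90 and -86, since each pair is TTTGGCGC followed by TTTCGCGC on the other strand. The window of SLBP, whose groups did not overlap either, held no E2F word. CDT1, the member with the lowest log2 fold change, also has a window with an E2F word.

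The 6 subunits of the origin recognition complex had a median log2 fold change of 0.003, with 3 above 0 and 3 below, and no subunit passed the unadjusted p. Without the library pair 5 of the 6 were above 0, with a median of 0.06. ORC1, the largest subunit, whose level moves with the cell cycle, was the highest at 19.8 FPKM, and ORC4 the lowest at 4.0 FPKM. With the length of the principal transcript in place of all exons joined, ORC6 came above ORC1, so the order at the top depends on the length used. ORC3 had the largest value of the complex, at 6.04, 7.0 and 5.25 FPKM in the control and 7.24, 5.93 and 7.18 FPKM in the I13 libraries, a log2 fold change of 0.16 ± 0.127 (SE, n = 3 and 3). Its groups overlapped, and control replicate 3 was the lowest of the 6. ORC5 had the smallest, with a log2 fold change of -0.03 ± 0.0954 (SE).

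The licensing factors included the member with the lowest log2 fold change of the whole set. CDT1, which loads the MCM ring together with CDC6, was at 41.3, 41.0 and 42.8 FPKM in the control and 34.9, 43.3 and 38.9 FPKM in the I13 libraries. The I13 values spread on both sides of the control values, and the log2 fold change was -0.10 ± 0.0789 (SE, n = 3 and 3). Without I13 replicate 2 its log2 fold change was -0.18, and CDT1 was then lower at an unadjusted p under 0.05. CDC6, the other loader, had the lowest level of the licensing factors, with a mean of 15.1 FPKM, and a log2 fold change of 0.04, the largest of the 3. Geminin was at 23.1 FPKM and had a log2 fold change of 0.02.

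All 6 subunits of the MCM2-7 helicase had a log2 fold change above 0, with a median of 0.09, and 1 of them was called at the unadjusted p. MCM3 was at 80.6, 82.1 and 87.4 FPKM in the control and 92.5, 92.1 and 87.0 FPKM in the I13 libraries. I13 replicate 3 fell just under control replicate 3, so the groups overlapped. The log2 fold change of MCM3 (ENSG00000112118, chromosome 6, 52264009 to 52284881, minus strand) was 0.12 ± 0.0502 (SE, n = 3 and 3, adjusted p = 0.947 by limma). MCM6 was at 48.5, 50.8 and 49.5 FPKM in the control and 57.1, 50.8 and 53.1 FPKM in the I13 libraries. Its groups did not overlap, although control replicate 2 and I13 replicate 2 round to the same value, and the log2 fold change was 0.11 ± 0.0550 (SE, adjusted p = 0.954 by limma). Of all 53 members, 7 did not overlap between the groups with I13 higher, where 4.88% of all genes tested did, and 0 with I13 lower, where 4.64% did.

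MCM7 was the most abundant helicase subunit and MCM5 the least, at mean levels of 137 and 35.4 FPKM, while by the length of the principal transcript MCM6 was the least. The log2 fold change of MCM7 was 0.01 ± 0.0786 (SE), the smallest of the helicase, with 127, 132 and 152 FPKM in the control and 135, 147 and 130 FPKM in the I13 libraries. MCM5 was at 31.7, 32.4 and 38.1 FPKM in the control and 36.1, 38.9 and 35.0 FPKM in the I13 libraries. Both subunits were higher in control replicate 3 and I13 replicate 2 than in the other libraries of their group. Their ratio within a library was steadier than either level. MCM7 over MCM5 was 4.01, 4.07 and 3.98 in the control libraries, and 3.75, 3.77 and 3.73 in the I13 libraries, or 4.02 ± 0.0418 and 3.75 ± 0.0235 (SD, n = 3 each). The groups did not overlap in this ratio, which was singled out after the values had been seen. It was the only ratio without overlap of the 15 between helicase subunits. Within all subcomplexes, 7 of 116 ratios did not overlap. Of single genes tested, 4.88% did not overlap with I13 higher and 4.64% with I13 lower. The share over ratios of other genes was not computed.

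The 8 genes of helicase activation had a median log2 fold change of 0.09, with 7 above 0 and none called. CDC45, which joins MCM and GINS into the working helicase, was the highest at 26.6 FPKM. GINS2 was at 11.1, 12.4 and 11.1 FPKM in the control and 12.8, 12.6 and 12.7 FPKM in the I13 libraries. The groups did not overlap, and the I13 libraries had an SD of 0.0776 FPKM (n = 3). For GINS2 the log2 fold change was 0.14 ± 0.0622 (SE, adjusted p = 0.947 by limma). GINS3 and GINS4 were the least abundant members of the set, with means of 2.31 and 2.51 FPKM. GINS3 had the largest log2 fold change of these genes, 0.14 ± 0.119 (SE, n = 3 and 3), and GINS4 the smallest, -0.03 ± 0.121 (SE). The kinase CDC7 and its activator DBF4 had log2 fold changes of 0.09 and 0.00, each with its lowest values in control replicate 3 and I13 replicate 2.

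Polymerase alpha-primase, which lays the first primer of each strand, had a median log2 fold change of 0.07 over 4 subunits, none called. POLA2 had the largest at 0.12 ± 0.106 (SE), and the primase subunit PRIM1 the smallest at -0.09 ± 0.117 (SE). PRIM1 was at 8.60, 10.8 and 7.88 FPKM in the control and 8.63, 8.73 and 8.06 FPKM in the I13 libraries. Control replicate 2 was the highest of the 6 and the other libraries lay close together. PRIM1 was also the most abundant subunit at a mean of 8.78 FPKM and PRIM2 the least at 4.41 FPKM.

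The polymerases of the 2 strands, delta and epsilon, had a median log2 fold change of -0.004 over 6 subunits, with 3 above 0. POLD3, an accessory subunit of polymerase delta, was at 6.00, 5.85 and 5.98 FPKM in the control and 6.59, 6.40 and 6.59 FPKM in the I13 libraries. Its groups did not overlap and the log2 fold change was 0.13 ± 0.0611 (SE, adjusted p = 0.948 by limma). POLD1, the catalytic subunit of the same enzyme, had the smallest value, -0.05 ± 0.0916 (SE), and its groups overlapped. POLD2 was the most abundant at 91.8 FPKM and POLE2 the least at 4.20 FPKM, so that mRNA of subunits of the same 2 enzymes spanned a 21.9-fold range.

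PCNA, the ring that holds the polymerases on DNA, had the highest level of the set by joined exons and came below MCM7 by the principal transcript. It was at 138, 144 and 148 FPKM in the control and 162, 149 and 158 FPKM in the I13 libraries. The groups did not overlap, with I13 replicate 2 close to control replicate 3. The log2 fold change of PCNA (ENSG00000132646, chromosome 20, 5114953 to 5126626, minus strand) was 0.12 ± 0.0513 (SE, n = 3 and 3, adjusted p = 0.947 by limma). The 5 subunits of its loader were not called. RFC5 had the largest log2 fold change of all members, 0.18 ± 0.0800 (SE, n = 3 and 3), at 9.72, 10.7 and 10.2 FPKM in the control and 10.5, 11.7 and 12.5 FPKM in the I13 libraries. Only I13 replicate 1 fell within the control values. RFC1, the large subunit, had the smallest at -0.01 ± 0.116 (SE). RFC5 had the lowest level of the loader at 10.9 FPKM, but came above RFC1 and RFC3 with the length of the principal transcript.

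Replication protein A, the trimer that coats single-stranded DNA, had a median log2 fold change of 0.09. RPA2 was at 45.6, 46.2 and 48.9 FPKM in the control and 50.8, 53.4 and 50.3 FPKM in the I13 libraries. The groups did not overlap, with the highest control and the lowest I13 value next to each other. For RPA2 (ENSG00000117748, chromosome 1, 27891524 to 27914746, minus strand) the log2 fold change was 0.13 ± 0.0488 (SE, n = 3 and 3, adjusted p = 0.947 by limma). RPA1, which binds most of the DNA, had a log2 fold change of 0.09 ± 0.0548 (SE). RPA3 was the least abundant at 7.11 FPKM and had the smallest log2 fold change, 0.05 ± 0.0710 (SE).

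In Okazaki fragment processing, the flap nuclease FEN1 was the most abundant at 42.9 FPKM and had the largest log2 fold change, 0.09 ± 0.0520 (SE). The ligase LIG1 was the least abundant at 16.2 FPKM, although above RNASEH2A by the length of the principal transcript, and had the smallest log2 fold change, 0.01 ± 0.0850 (SE). None of the 3 genes was called, and all 3 had a log2 fold change above 0.

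Of the nucleotide supply genes, DUT had the lowest p of the 53 members. DUT encodes dUTPase, which hydrolyzes dUTP and so keeps uracil out of new DNA while providing dUMP for thymidylate synthesis. It was at 35.7, 36.6 and 37.0 FPKM in the control and 41.7, 39.1 and 40.8 FPKM in the I13 libraries. All I13 values were above all control values, and the I13 values spread more than the control values. The means were 36.5 ± 0.651 and 40.5 ± 1.32 FPKM (SD, n = 3 each), and the log2 fold change of DUT (ENSG00000128951, chromosome 15, 48331011 to 48343373, plus strand) was 0.15 ± 0.0454 (SE, n = 3 and 3, adjusted p = 0.875 by limma). Its 95% interval ran from 3.21% to 19.7% above the control. On its opposite strand, AC023355.1 shares 14.5% of the exon bases of DUT, at a mean of 0.237 FPKM.

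The enzymes that make the deoxynucleotides had smaller log2 fold changes than DUT. TYMS, thymidylate synthase, had the smallest log2 fold change of the 5 genes, -0.02 ± 0.0823 (SE), at 14.2, 15.1 and 12.4 FPKM in the control and 13.3, 13.4 and 14.3 FPKM in the I13 libraries. Its groups overlapped fully. ENOSF1, on the opposite strand, shares 39.1% of the exon bases of TYMS, and the strand setting of the counting is not given in the sources used here, so the reads of TYMS are uncertain. RRM1 and RRM2, the subunits of ribonucleotide reductase, had log2 fold changes of 0.03 ± 0.0527 and 0.04 ± 0.0623 (SE). RRM2, the subunit that is limiting outside S phase, was the least abundant of the nucleotide supply genes at 11.7 FPKM. On the same strand, AC007240.1 shares 20.2% of the exon bases of RRM2, at a mean of 0.659 FPKM. The reads of RRM2, and its rank below TYMS, are therefore uncertain too. TK1, thymidine kinase, was the most abundant at 115 FPKM and varied the most of these 5 genes, at 102, 106 and 130 FPKM in the control and 113, 129 and 112 FPKM in the I13 libraries. Its high values were those of control replicate 3 and I13 replicate 2, and the log2 fold change was 0.07 ± 0.102 (SE). DUT over RRM1 was 1.14 ± 0.0120 in the control and 1.24 ± 0.0380 in the I13 libraries (SD, n = 3 each). This ratio, chosen after its values were seen, is among the 7 of 116 without overlap.

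In chromatin assembly and histone supply, SLBP, which binds the stem-loop of replicative histone mRNA, was at 44.2, 45.2 and 37.9 FPKM in the control and 49.7, 46.3 and 46.8 FPKM in the I13 libraries. The groups did not overlap, and control replicate 3 was far below the rest. For SLBP the log2 fold change was 0.17 ± 0.0749 (SE, adjusted p = 0.947 by limma). CHAF1A and CHAF1B, subunits of the assembly factor that places histones behind the fork, had log2 fold changes of 0.09 ± 0.0845 and 0.02 ± 0.0798 (SE). CHAF1B was the least abundant of the 3 genes at 6.64 FPKM.

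**Figure D3:**
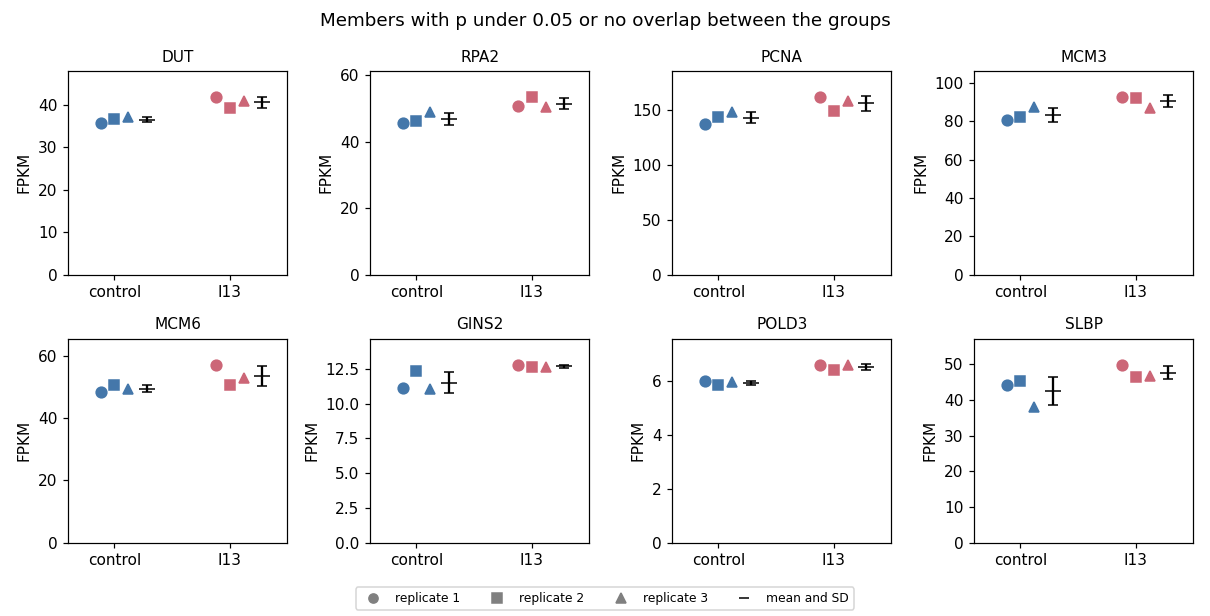
FPKM in the 3 control and 3 I13 libraries, from 0, for the 8 members with an unadjusted p under 0.05 or no overlap between the groups, with a marker for each replicate. The I13 points lie above the control points in DUT, RPA2, PCNA, MCM6, GINS2, POLD3 and SLBP, while those of MCM3 overlap.

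The small upward shift of the members rested in part on control replicate 1. The median over the members of the deviation from the mean of the 6 libraries, on the log2 scale, was -0.08 in control replicate 1, -0.02 in control replicate 2 and -0.01 in control replicate 3. It was 0.03, 0.02 and 0.05 in I13 replicates 1, 2 and 3. Without control replicate 1 the median log2 fold change of the members was 0.04, 40 of 53 were above 0, and DUT was the 1 member called as higher at the unadjusted p, where 2.07% of all genes tested were (2% as lower). DUT held an unadjusted p under 0.05 without any one library, with a log2 fold change between 0.13 and 0.18. PCNA lost it when control replicate 1 or 2 was left out, and when I13 replicate 1 or 3 was, with log2 fold changes of 0.10 to 0.13 there. RPA2 lost it when control replicate 1 or 2 was left out, and when I13 replicate 1 or 2 was, with log2 fold changes of 0.11 to 0.14. The same 4 omissions ended the call of MCM3, with log2 fold changes of 0.10 to 0.11. By limma's voom on the recovered fragments, DUT and SLBP were higher at the unadjusted p, where 2.56% of genes were, and 0 members were lower, where 2.8% were. None passed the adjusted p by voom, where 0.0362% of genes did. By limma without the variance trend, 0 members passed the unadjusted p, where 2.41% of all genes did as higher and 2.36% as lower.

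The members spread more between the library pair and the other libraries than between I13 and control. The pair was picked from component 1, the largest axis of variance in these libraries, so a wider spread follows in part from that choice. Between control replicate 3 and I13 replicate 2 on one side and the other libraries of their groups on the other, the members differed by -0.30 (CDC7) to 0.26 (TK1) on the log2 scale, a wider range than that of I13 against control. This difference went with the GC content of the principal transcript, with r = 0.83 and rho = 0.83 over the 53 members, which all share the same 6 libraries. All 10 members with a GC of at least 55% were higher in the pair, with a median of 0.19. Of the 19 members with a GC under 45%, 2 were higher, with a median of -0.11, and of the 24 in between, 12 were higher, with a median of 0.003. Over all 9692 genes at 1 FPKM or more on average the same r was 0.68 and rho was 0.74, so genes outside replication showed the relation too. The log2 fold change of I13 against control had little linear relation with GC over the members (r = -0.12), and each group holds 1 library of the pair. Its median was 0.04 in the members under 45% GC, 0.09 in those in between and 0.02 in those of at least 55%.

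**Figure D4:**
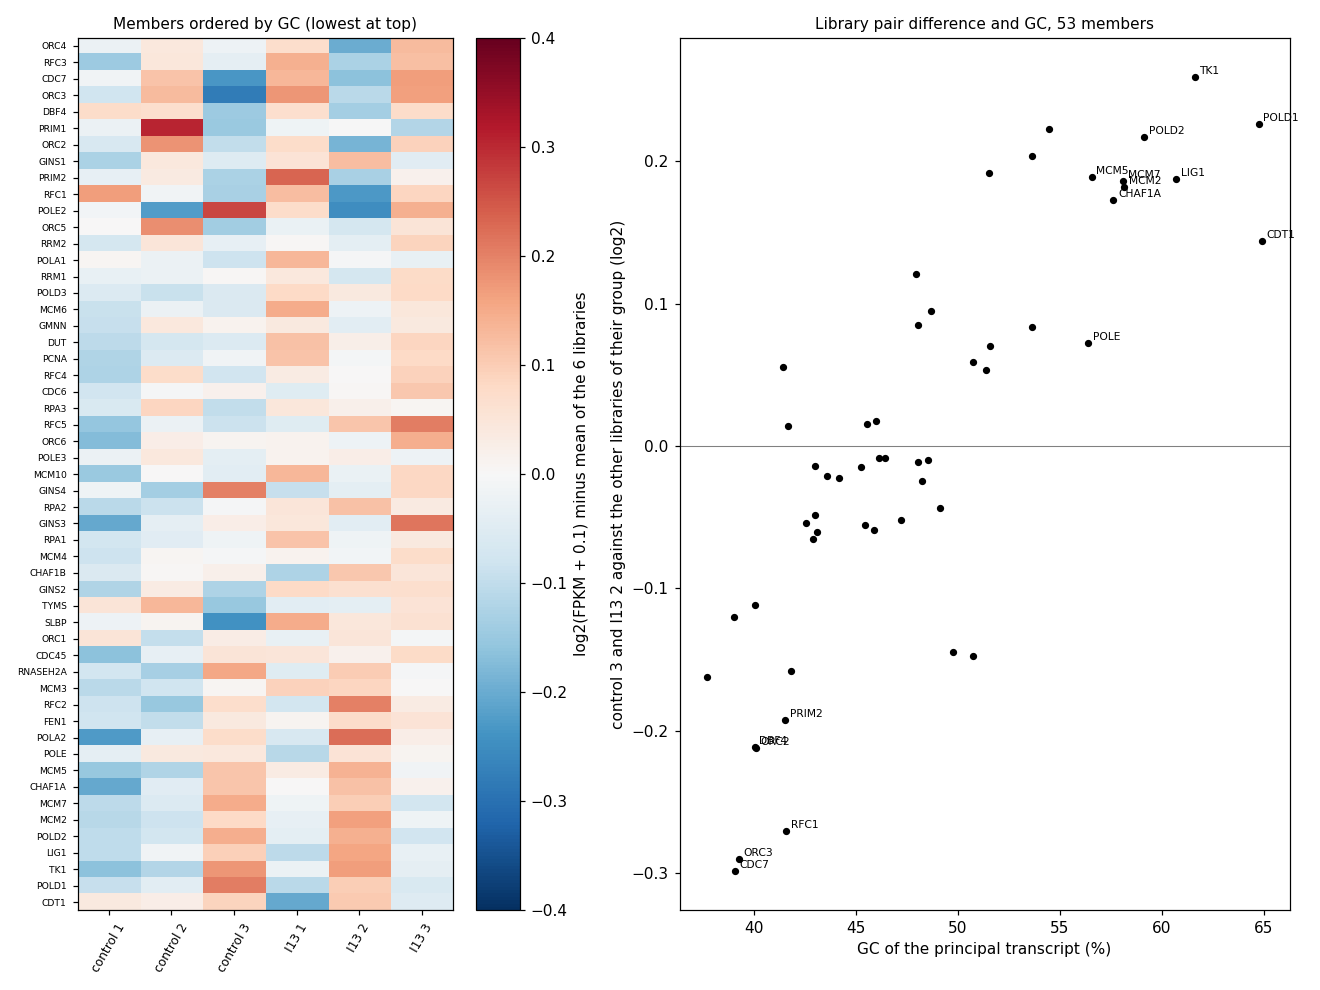
Left, deviation of each member from its mean over the 6 libraries on the log2 scale, members ordered by GC with the lowest at the top. Right, the difference of control replicate 3 and I13 replicate 2 from the other libraries of their group (log2) against the GC of the principal transcript (%), 1 point per member. Of the 19 members under 45% GC, 2 lie above 0, and the 10 members of at least 55% GC all do.

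No label names the pair, which was picked from the values of these same libraries. Setting it apart takes away spread within the groups, so lower p-values follow in part from that choice. With the pair set apart, more members passed the unadjusted p, as did more of all genes tested. In the 4 libraries without the pair, 44 of 53 members were above 0 and the median log2 fold change was 0.09, and 11 were called as higher, where 4.28% of all genes were (3.76% as lower). These were MCM3, MCM5, MCM6, MCM10, CDC45, PCNA, RPA1, RPA2, FEN1, TK1 and DUT. Within the pair, where there is 1 library per group and no test, the median was 0.02 and 32 of 53 were above 0. With a term for the pair in the fit of all 6 libraries, 11 members were called as higher, where 3.7% of all genes were (3.92% as lower): MCM2, MCM3, MCM5, MCM6, GINS2, POLD3, PCNA, RPA2, FEN1, DUT and SLBP. No member passed the adjusted p in either fit, with smallest adjusted p-values from limma of 0.484 and 0.487. The log2 fold change of DUT was 0.19 in the 4 libraries and 0.08 within the pair, that of PCNA 0.18 and 0.01, that of RPA2 0.14 and 0.12, and that of MCM3 0.14 and 0.08. The part of the pair in the differences between I13 and control was not tested beyond these fits.

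The rest of the pathway was listed by function in the same way. Of 30 other replication factors, such as origin firing factors, fork protection proteins and alternative clamp loaders, 0 passed the unadjusted p in either direction and 22 had a log2 fold change above 0, with a median of 0.05. DSCC1, a subunit of an alternative clamp loader, had the largest at 0.15 ± 0.0983 (SE). POLD4, the smallest subunit of polymerase delta, had the lowest at -0.40 ± 0.246 (SE), at 0.491 to 1.07 FPKM. MCM9 at -0.17 and RNASEH2B at -0.16, named after their values were seen, were also below the lowest member. Of 25 other genes of nucleotide metabolism, 0 passed the unadjusted p in either direction and 14 were above 0, with a median of 0.03. The largest value was that of NME2, 0.20 ± 0.157 (SE), whose reads are uncertain because it shares sequence with NME1 and their readthrough transcript. The lowest was that of SAMHD1, a dNTP hydrolase, at -0.08 ± 0.0926 (SE).

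The proliferation markers also differed little. Of 12 such markers, 11 had a log2 fold change above 0, with a median of 0.05. At an unadjusted p under 0.05, 1 marker was higher, where 2.55% of all genes tested were, and 0 were lower, where 2.59% were. It was E2F1, an activator of many replication genes. E2F1 was at 23.0, 25.4 and 26.7 FPKM in the control and 27.7, 29.6 and 27.3 FPKM in the I13 libraries. Its groups did not overlap, as in 4.88% of all genes tested with I13 higher. The log2 fold change of E2F1 was 0.17 ± 0.0687 (SE, n = 3 and 3, adjusted p = 0.947 by limma). MKI67 had a log2 fold change of 0.03 ± 0.0506 (SE) and CCNA2 one of -0.02 ± 0.0678 (SE).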

How the data were processed

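Total RNA of 3 control and 3 I13 libraries was extracted with TRIzol and made into libraries with a TruSeq Stranded mRNA kit, per the labels. The authors deposited FPKM values per gene and library, and their processing notes name Trimmomatic, HISAT2, HTSeq, Cufflinks and hg38 without versions or roles. For the annotation release and the strand setting of the counting, the entry is not given in the sources used here. FPKM has the library total divided out and was used as deposited, without further scaling. Symbols and exon lengths came from GENCODE release 29 (GRCh38), which names 32244 of the 32364 identifiers, and 5269 genes were at 0 in every library. With these lengths 25773 of 27002 genes (95.4%) came out as whole fragments in each of the 6 libraries (tolerance 0.01), 1319 more were recovered from a step shared by their values, and 3 were not recovered. How many fragments stand behind a value sets its precision.

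The comparison of I13 and control was fitted by limma 3.58.1 under R 4.3.3 to log2(FPKM + 0.1), two-sided, with a trend of the variance and without a block. Of all genes, 18726 reached a mean FPKM of 0.1 and were tested, and those below were left out. The thresholds were a p of 0.05, unadjusted or with Benjamini-Hochberg adjustment, and a log2 fold change of 0.58 in size. FPKM is not a count, so the second test was limma's voom on recovered fragments, for genes that averaged 10 or more. The fold change on this scale understates that of low genes. Tables and promoter searches were made in Python 3.11.15 with pandas 2.3.3. Scripts were tested on simulated data. Chi-square per gene between replicates of a group was 3.06 to 8.20, more than counting alone gives.

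The members and lists were chosen with earlier results of these data known. Named members are those with an unadjusted p under 0.05, those whose groups did not overlap, and in each subcomplex those with the highest and lowest level and the largest and smallest log2 fold change. Of the other lists, the largest and smallest are named. Other members named were chosen after their values were seen. Alternatives were median scaling and quantile normalization, pseudocounts of 0.01 and 1, a minimum mean FPKM of 1 or none, each library left out, the library pair left out or as a term, the replicate number as a block, no trend, robust variances and voom. Voom with the pair term and levels by the length of the principal transcript were chosen after seeing the data. The pair itself is named by no label and was picked from these values, so every setting that uses it rests on data already seen.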

Additional observations from a re-analysis of the deposited data

How the results depend on the processing

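The members had no call at the adjusted p under any alternative, and 40 to 44 of the 53 had a log2 fold change above 0. The number of members higher at an unadjusted p under 0.05, 4 as reported, was 0 by limma without a trend, 2 under median scaling, 2 by voom, 11 with a term for the pair (control replicate 3 with I13 replicate 2), 10 by voom with it, 11 without the pair together, and 1 to 7 with single libraries left out. Of all genes in each fit, 2.55% were higher as reported, 2.41% without a trend and 2.56% by voom. The share was 3.7% with the pair term, 4.28% without the pair together and 2.07% without control replicate 1. Shares of all genes under the other alternatives are not given here, so those counts of members and of the other lists stand without a background. The number lower, 0 as reported, was 0 to 1 with single libraries left out, the 1 being CDT1 without I13 replicate 2. The deviations of libraries numbered 1, 2 and 3 from their group means correlated between the groups by 0.083, -0.070 and -0.017. Control replicate 1 went best with I13 replicate 1, control replicate 2 with I13 replicate 3 (0.085) and control replicate 3 with I13 replicate 2 (0.072). Correlations this small cannot decide whether same-numbered libraries were handled together. With the replicate number as a block, 1 member was higher. Of the other replication factors, 0 higher as reported, 1 was higher with the pair term, 1 by voom with that term, 2 without the pair together and 0 to 3 with single libraries left out. As lower there was 1 under median scaling, no filter, quantile normalization, the pair term, voom and voom with the pair term, and 0 to 1 with single libraries left out. Of the other nucleotide genes, 2 were higher with the pair term, 2 by voom with it, 1 without the pair together and 0 to 1 with single libraries left out. Over all genes, the calls at the adjusted p and the fold threshold were 9 without a trend, 4 by voom, 15 by voom with the pair term and 0 to 2 with single libraries left out. Calls at the unadjusted p and the fold threshold, 220 higher and 225 lower as reported, were 59 and 60 with a minimum mean FPKM of 1, 72 and 62 with a pseudocount of 1, 110 and 94 by voom, and 108 and 95 by voom with the pair term. The median log2 fold change with single libraries left out was 0.038 to 0.082 for all members, 0.00074 to 0.096 for polymerase alpha-primase, -0.030 to 0.070 for polymerases delta and epsilon, 0.056 to 0.11 for replication protein A and 0.013 to 0.11 for chromatin assembly and histone supply. Without the library pair it was 0.14 for replication protein A, 0.087 for nucleotide supply, 0.057 for the origin recognition complex, 0.063 for licensing factors and 0.076 for Okazaki fragment processing. Sign changes occurred in 23 genes, none with a log2 fold change beyond 0.09 in size as reported, and the cause of these changes was not tested. The depth gave each member 172 or more fragments in every library, while a gene with few fragments can show only large changes.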
